A study of Mus musculus with 10 samples.

Results

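The JmjC histone demethylases are the enzymes whose catalytic jumonji domain Jarid2 shares in an inactive form. Of these enzymes, 10 genes were taken here by symbol from the 35976 genes of the count table, Kdm6a, Kdm6b, Kdm5a, Kdm5b, Kdm5c, Kdm4a, Kdm4c, Kdm3a, Kdm3b and Kdm2a, and all 10 were found. They were measured in polyadenylated RNA of mouse morulae, in 4 groups. The column names of the pools give the cross BDF1 x PWK, and those of the single embryos give no cross. Single female embryos with the genotype Jarid2 knockout gave 3 libraries (replicates 1, 3 and 4), and single female wild-type embryos gave 3 (replicates 1 to 3). Pools of about 20 Jarid2 knockout morulae gave 2 libraries, and pools of about 20 control morulae gave 2. The sources used here do not say how the knockout was made, what the pooled control embryos carry, or their sex. They do not say either whether the pools are separate litters, so p-values between pools measure a spread that may be technical.

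JmjC demethylases are dioxygenases that use iron, oxygen and alpha-ketoglutarate to take methyl groups off lysines of histone tails. In the early embryo they act against the marks left by the gametes and by the methyltransferases of the zygotic genome, and each family has its own substrates. Jarid2 (chromosome 13, 44729474 to 44921643, plus strand) keeps the fold without the activity and works as a cofactor of Polycomb repressive complex 2, which methylates H3K27. The comparison therefore covers the catalytic relatives of the gene that was knocked out, among them the enzymes that undo the Polycomb mark.

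The 2 KDM4 genes, which encode enzymes of the same substrates, are shown first. No annotated gene span overlaps the stretch printed for either. Their RefSeq promoter windows (GRCm38.p6) run from 250 to 51 bases before the annotated start, read on the strand of the gene. Capitals mark CG dinucleotides. Kdm4a lies on the minus strand, with its window at chr4:118180094-118180293, and Kdm4c on the plus strand, with the window of its first start at chr4:74242247-74242446.
Kdm4a: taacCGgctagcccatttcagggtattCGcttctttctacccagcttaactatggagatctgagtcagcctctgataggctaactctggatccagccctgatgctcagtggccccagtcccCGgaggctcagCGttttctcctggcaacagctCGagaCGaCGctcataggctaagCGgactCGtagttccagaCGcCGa
Kdm4c: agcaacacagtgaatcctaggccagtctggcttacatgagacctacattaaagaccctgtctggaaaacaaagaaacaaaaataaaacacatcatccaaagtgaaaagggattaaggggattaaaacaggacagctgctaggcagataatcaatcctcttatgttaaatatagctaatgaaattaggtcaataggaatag
The Kdm4a window held 11 CG dinucleotides, a number reached by 26.7% of the 32841 promoter windows of that table. The Kdm4c window held 0, and the window of a later Kdm4c start, which lies inside the annotated span of Kdm4c, had 12. The median over all windows was 4, and 89.1% of them held at least 1. Of the 10 genes, 6 had an entry, and the windows of the other first starts held 10 (Kdm6a), 7 (Kdm5b), 8 (Kdm5c) and 17 (Kdm3a).

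Each single embryo gave between 14830332 and 18696312 counts and each pool between 41003216 and 49861963. The 10 genes together took 0.0623%, 0.0802% and 0.0453% of the counts in KO single embryos 1, 3 and 4, against 0.0885%, 0.0676% and 0.0858% in WT single embryos 1 to 3. In the pools they took 0.0582% and 0.0659% in KO, against 0.0508% and 0.0524% in CTR. No member had fewer than 118 counts in any library. Jarid2 itself had 156, 319 and 61.3 CPM (each count as a share of the total of its library, on 1 scale for all) in KO single embryos 1, 3 and 4, against 580, 686 and 776 CPM in WT single embryos. The pools had 181 and 158 CPM in KO, against 442 and 496 CPM in CTR. Every KO library lay below every control, with a log2 change of -1.92 (SE 0.43, adjusted p = 0.0342) in single embryos and -1.55 (SE 0.18, adjusted p = 0.0794) in pools, by edgeR's quasi-likelihood test with Benjamini-Hochberg adjustment over all genes tested. Its transcript thus remained countable in all 5 KO libraries, highest in KO single embryo 3. In single embryos the call was kept when WT embryo 2 or KO embryo 3 was left out and lost when any of the other 4 was (adjusted p 0.0143 to 0.127). In pools it passed with DESeq2 (adjusted p = 5.19e-11), with limma-voom (adjusted p = 0.0303) and with no filter on low counts (adjusted p = 5.90e-12). It did not pass there with any of 3 other scalings, with a mean of at least 10 CPM, with robust fitting, with the length correction or with all 10 libraries in 1 fit (adjusted p 0.0772 to 1). Without any 1 pool it was past 5%, in fits that leave 1 library in a group and assume that it varies like the other group. What the knockout changes in the gene is not stated, so counts over the whole gene check the labels only in part. All 10 embryo markers, Pou5f1 and Cdx2 among them, were detected in every library (1472 to 3308 CPM summed). Markers of cumulus cells summed to 22.5 to 50.03 CPM, with 5 to 8 of 9 at 0, and markers of oocytes to 36.4 to 164 CPM. Nearly all of these sums came from 1 gene each, Amhr2 (group means 21.9 to 39.4 CPM) and Zp3 (63.3 to 113 CPM). Every other cumulus marker had group means of at most 0.615 CPM, and every other oocyte marker of at most 1.32 CPM.

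None of the 10 genes passed 5% in either set, in the difference between the sets or in their average. In single embryos 605 of 13830 genes (4.37%) passed, 161 higher (1.16%) and 444 lower (3.21%) in KO. That number was 41, 520 and 1 without WT single embryos 1, 2 and 3, and 66, 1316 and 1 without KO single embryos 1, 3 and 4. In pools 0 of 16259 genes passed (0%) in edgeR, while 1073 (6.6%) had an unadjusted p under 0.05. DESeq2 called 71 genes in the pools and limma-voom 1. Without 1 pool edgeR called 51 or 63 (CTR 1 or 2 left out) and 379 or 25 (KO 1 or 2 left out), and none of these was a member. These fits leave 1 library in a group and assume that it varies like the other group. In bulk RNA, fewer cells of a type and less RNA per cell cannot be told apart.

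**Figure D1:**
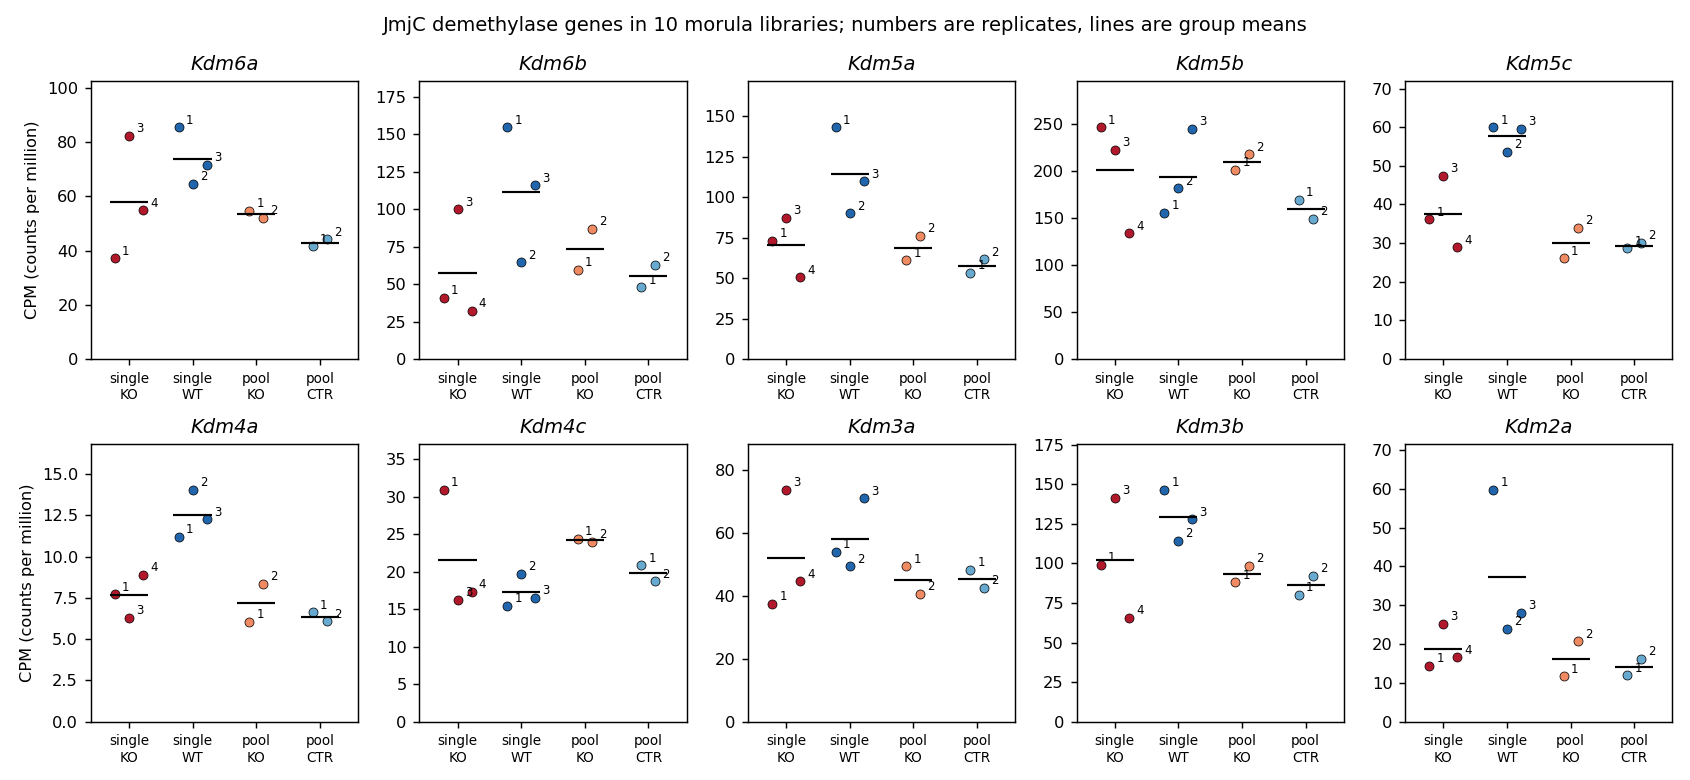
Level of each JmjC demethylase gene in CPM (vertical axes, linear from 0) in each library of the 4 groups. Points are libraries numbered by replicate and lines are group means. Kdm5a, Kdm5c and Kdm4a have all 3 KO single embryos below all 3 WT ones, and Kdm6a, Kdm5b and Kdm4c have both KO pools above both CTR pools.

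Kdm6a and Kdm6b, also called Utx and Jmjd3, remove di- and trimethylation from H3K27, the product of the complex that Jarid2 serves. Kdm6b (chromosome 11, 69398508 to 69413675, minus strand) had 40.8, 99.8 and 32.3 CPM in KO single embryos 1, 3 and 4, against 155, 64.5 and 116 CPM in WT single embryos 1 to 3. KO embryo 3 lay above WT embryo 2, so the groups overlapped. The log2 change was -0.95 (SE 0.41, 95% interval -1.85 to -0.05, unadjusted p = 0.0412), and its adjusted p was 0.199. It was the 1 member that any alternative called, at -1.51 without KO single embryo 3 (adjusted p = 0.0374) and at -0.95 with no filter on low counts (adjusted p = 0.00866). The change was smaller without WT embryo 1 (-0.66, adjusted p = 0.535), KO embryo 4 (-0.68), KO embryo 1 (-0.79) or WT embryo 3 (-0.90). Without WT embryo 2 it was -1.23. In the pools Kdm6b had 59.4 and 87.1 CPM in KO, against 47.9 and 63.0 CPM in CTR. The log2 change there was 0.31 (SE 0.20, adjusted p = 0.852), and the groups overlapped. It was 0.50 without KO pool 1 and 0.08 without KO pool 2.

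Kdm6a (chromosome X, 18162575 to 18279936, plus strand) had 37.1, 82.4 and 54.8 CPM in KO single embryos, against 85.4, 64.6 and 71.5 CPM in WT ones. KO embryo 3 again lay among the wild types, and the log2 change was -0.33 (SE 0.28, adjusted p = 0.542), or -0.59 without it and -0.12 without KO embryo 1. In the pools it had 54.7 and 52.0 CPM in KO, against 41.5 and 44.2 CPM in CTR, a log2 change of 0.23 (SE 0.17, adjusted p = 0.864). Both KO pools stood above both CTR pools, as they did for 24.3% of all genes tested there.

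The KDM5 family removes methylation from H3K4, the mark of active promoters, and Kdm5b is known for trimming the broad H3K4me3 domains that the mouse embryo inherits from the oocyte. Kdm5a (chromosome 6, 120364124 to 120444574, plus strand) had 73.2, 87.5 and 50.6 CPM in KO single embryos, against 143, 90.0 and 110 CPM in WT ones. Kdm5c (chromosome X, 152233020 to 152274535, plus strand) had 36.2, 47.3 and 28.9 CPM in KO single embryos, against 59.9, 53.7 and 59.6 CPM in WT ones. For both, every KO embryo lay below every WT embryo. The log2 changes were -0.66 for Kdm5a (SE 0.26, unadjusted p = 0.0291, adjusted p = 0.165) and -0.59 for Kdm5c (SE 0.26, unadjusted p = 0.0424, adjusted p = 0.203). In the pools Kdm5a had 61.1 and 76.0 CPM in KO, against 53.1 and 61.6 CPM in CTR, and Kdm5c had 26.1 and 34.0 CPM in KO, against 28.6 and 30.0 CPM in CTR. Neither pair separated there, with log2 changes of 0.17 (SE 0.17) and -0.06 (SE 0.19).

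Kdm5b (chromosome 1, 134560171 to 134635285, plus strand) had the highest mean CPM of the 10 genes in all 4 groups. It had 246, 222 and 134 CPM in KO single embryos, against 155, 181 and 245 CPM in WT ones, and the groups covered nearly the same range. Its log2 change was 0.09 (SE 0.27, 95% interval -0.50 to 0.69). In the pools it had 201 and 218 CPM in KO, against 169 and 149 CPM in CTR. Both KO pools lay above both CTR pools, with a log2 change of 0.30 (SE 0.17, unadjusted p = 0.100, adjusted p = 0.822).

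Kdm4a and Kdm4c, whose promoter windows are printed above, remove trimethylation from H3K9 and H3K36. Kdm4a (chromosome 4, 118136957 to 118180043) had the lowest mean CPM of the 10, with 7.72, 6.31 and 8.91 CPM in KO single embryos, against 11.2, 14.0 and 12.2 CPM in WT ones. All 3 KO embryos lay below all 3 WT embryos, and here KO embryo 3 was the lowest. The log2 change was -0.65 (SE 0.40, 95% interval -1.53 to 0.23, adjusted p = 0.367). The pools overlapped, with 6.06 and 8.37 CPM in KO, against 6.62 and 6.09 CPM in CTR. Kdm4c (chromosome 4, 74242497 to 74405860) had 30.9, 16.3 and 17.3 CPM in KO single embryos, against 15.4, 19.7 and 16.5 CPM in WT ones. The higher KO mean rested on embryo 1: the log2 change was 0.39 (SE 0.37) with it and -0.03 without it. In the pools Kdm4c had 24.3 and 24.0 CPM in KO, against 20.9 and 18.7 CPM in CTR, with no overlap and a log2 change of 0.20 (SE 0.20, adjusted p = 0.900).

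Kdm3a and Kdm3b remove mono- and dimethylation from H3K9. Kdm3a (chromosome 6, 71588972 to 71632990, minus strand) had 37.5, 73.8 and 44.8 CPM in KO single embryos, against 54.1, 49.5 and 71.1 CPM in WT ones. Kdm3b (chromosome 18) had 99.0, 141 and 65.6 CPM in KO single embryos, against 146, 114 and 128 CPM in WT ones. Both pairs of groups overlapped, with log2 changes of -0.15 (SE 0.29) and -0.31 (SE 0.26). That of Kdm3b was -0.54 without KO embryo 3 and -0.09 without KO embryo 4. In the pools Kdm3a had 49.4 and 40.8 CPM in KO, against 48.4 and 42.7 CPM in CTR, and Kdm3b had 88.1 and 98.7 CPM in KO, against 80.1 and 92.3 CPM in CTR. The values of Kdm3b are uncertain, because 23.2% of the 75-base windows of its transcripts are shared with Gm26538, a noncoding gene on the opposite strand that is not a row of the table. Kdm6b shared 1.18% of its windows, all with Kdm6bos. Kdm5a shared 1.51% with 8 genes, most of it with Ccdc77 (1.22%), which is a row of the table. The share was 0 for the other 7 members.

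Kdm2a (chromosome 19, 4314419 to 4398285, minus strand) removes dimethylation from H3K36 and binds unmethylated CG dinucleotides through a zinc finger. It had 14.4, 25.3 and 16.6 CPM in KO single embryos, against 59.7, 23.9 and 28.1 CPM in WT ones. KO embryo 3 lay above WT embryo 2. The log2 change was -0.96 (SE 0.39, unadjusted p = 0.0312, adjusted p = 0.171) and depended on WT embryo 1, without which it was -0.45 (adjusted p = 0.619). In the pools Kdm2a had 11.7 and 20.7 CPM in KO, against 11.9 and 16.2 CPM in CTR, a log2 change of 0.10 (SE 0.27). KO pool 2 was the highest and KO pool 1 the lowest of the 4 pools.

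**Figure D2:**
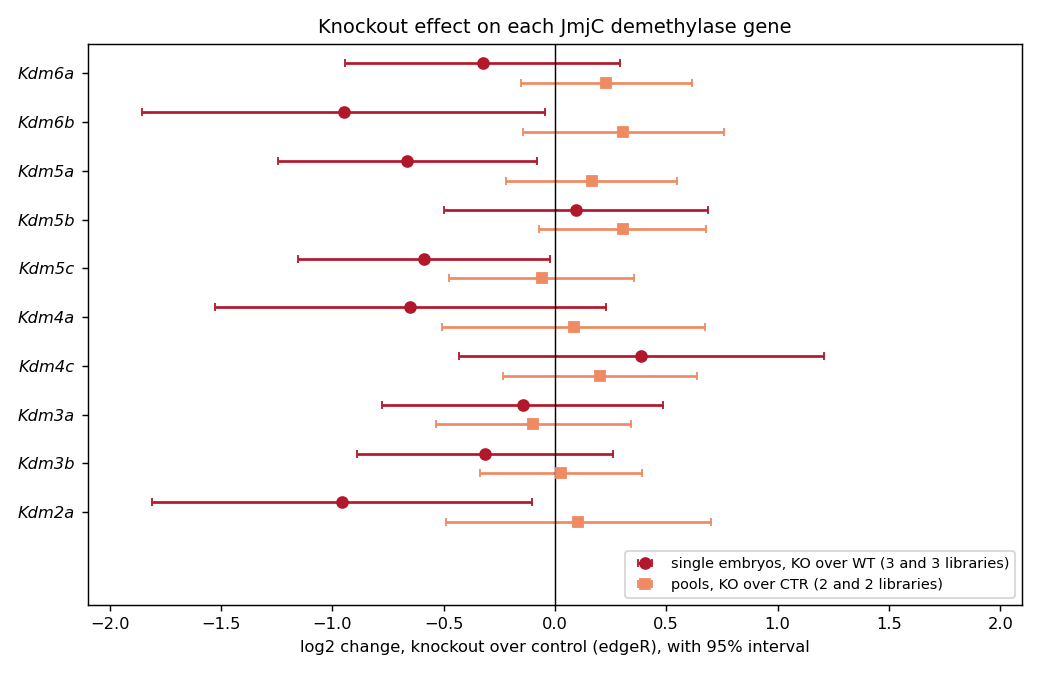
Log2 change of each gene, knockout over control, with its 95% interval (horizontal axis), in single embryos (circles, 3 KO and 3 WT libraries) and in pools (squares, 2 KO and 2 CTR libraries). In single embryos 8 of 10 values lie below 0 and the intervals of Kdm6b, Kdm5a, Kdm5c and Kdm2a leave out 0 before adjustment, while every interval of the pools holds 0.

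Over the 10 genes the log2 changes in single embryos ran from -0.96 to 0.39, with a median of -0.46 against -0.03 over all genes tested. Of them, 8 were below 0, against 51.7% of all genes. An unadjusted p under 0.05 was reached by 4 members, all lower in KO, against 12.2% of all genes on that side and 10.4% on the other. The groups did not overlap for 3 members lower in KO (Kdm5a, Kdm5c and Kdm4a) and 0 higher, against 15.3% and 12.6% of all genes. In pools the log2 changes ran from -0.10 to 0.31, with a median of 0.13 against 0.01 over all genes, and 0 members had an unadjusted p under 0.05. There 3 members had no overlap on the higher side (Kdm6a, Kdm5b and Kdm4c) and 0 on the lower side, against 24.3% and 11.1% of all genes. The members were chosen as a family, so these counts describe it and carry no test of their own.

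The single-embryo effect minus the pool effect was tested in 1 fit over all 10 libraries, in which 1 of 15878 genes (0.0063%) passed 5% and 14.6% had an unadjusted p under 0.05. For each gene that fit, also used for the average, shares 1 estimate of spread between the sets. The sets differ in embryos per library, depth, Y-linked transcripts and the label of the control, and the parts of these cannot be told apart. For Kdm5a the difference was -0.81 on the log2 scale (SE 0.36, unadjusted p = 0.0453, adjusted p = 0.330), the 1 member under 0.05 before adjustment. For Kdm6b it was -1.23 (SE 0.60, unadjusted p = 0.0623) and for Kdm2a -1.03 (SE 0.57, unadjusted p = 0.0939). Without WT single embryo 1 the Kdm2a difference was -0.54. Of the 10 differences 9 were below 0, against 52.1% of all genes, with a median of -0.52 against -0.05 over all genes. All 10 members are in the longest of 4 classes of coding length. In that class 73.7% of differences were below 0, with a median of -0.47. The negative values in single embryos and the positive values in pools were thus not shown to differ for any member. The average of both effects, in which 40 of 15878 genes (0.252%) passed, or 0 to 130 when 1 library was left out, had a median of -0.18 over the members, with adjusted p from 0.534 upwards. That number was 1, 130 and 1 without WT single embryos 1, 2 and 3, and 2, 81 and 1 without KO single embryos 1, 3 and 4. It was 26 and 1 without CTR pools 1 and 2, and 0 without either KO pool.

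**Figure D3:**
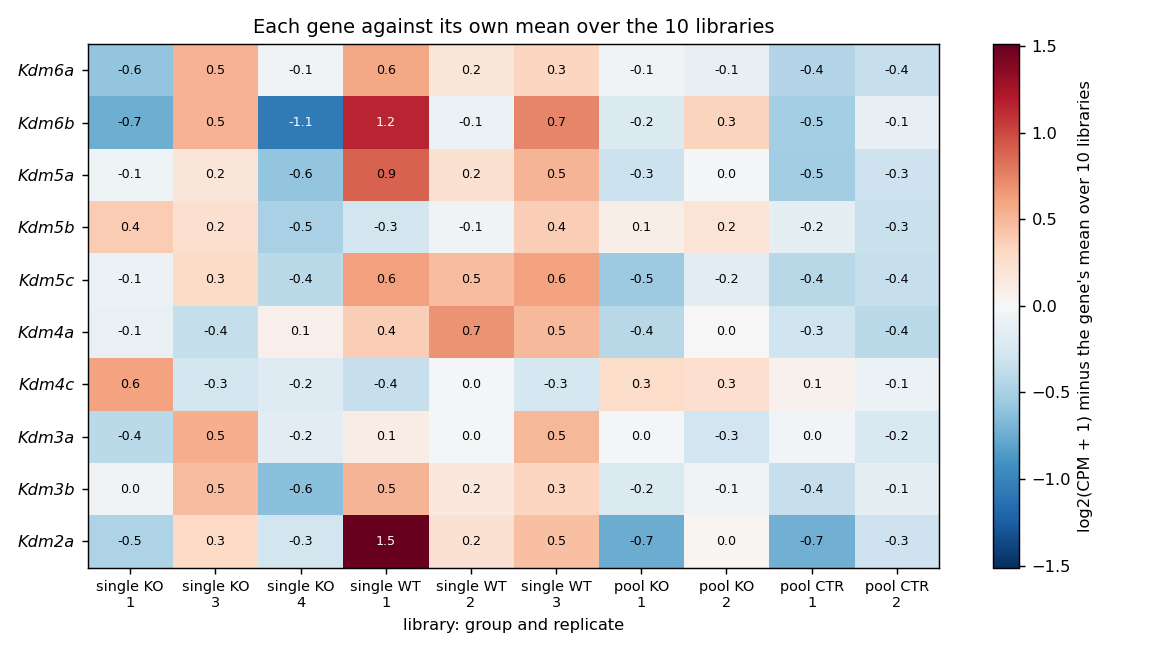
Log2(CPM + 1) of each gene minus its own mean over the 10 libraries, with rows for genes and columns for libraries. WT single embryo 1 is above the mean for 8 of 10 genes, KO single embryo 3 is above the mean for 8 and KO single embryo 4 for 1. In KO single embryo 1 only Kdm4c (0.60) and Kdm5b (0.39) are above their means.

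The libraries of a group also differed among themselves. The members' mean deviation from their own average level, on the log2(CPM + 1) scale, was -0.15, 0.24 and -0.38 in KO single embryos 1, 3 and 4, against 0.51, 0.18 and 0.41 in WT single embryos 1 to 3. In the pools it was -0.22 and 0.02 in KO, against -0.34 and -0.27 in CTR. KO single embryo 3, which also kept the most Jarid2 among the KO single embryos, thus lay between WT embryos 2 and 3 in its JmjC genes. The 5 genes whose profile over the 10 libraries was most like the members' mean, of 7543 genes with at least 10 CPM on average, were Btaf1 (Pearson r = 0.991), Cic (0.982), Rsf1 (0.979), Rpap1 (0.978) and Luc7l2 (0.978). Their log2 changes were -0.49, -1.04, -0.58, -0.65 and -1.06 in single embryos and 0.11, 0.43, 0.11, 0.12 and 0.32 in pools. The libraries of this likeness share their groups and their depth, and it is given as a description.

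All 10 genes encode long proteins, from 1054 (Kdm4c) to 1762 (Kdm3b) residues, and all fall in the longest of 4 equal classes of coding length (729 residues or more in single embryos). The log2 change between KO and control libraries moved with coding length in these data, downwards in single embryos and upwards in pools. In single embryos the median log2 change was 0.24, 0.14, -0.09 and -0.39 from the shortest to the longest class, and in pools it was -0.07, -0.07, 0.01 and 0.09. In the longest class 72.7% of genes were below 0 in single embryos, and 23.9% had KO embryos below WT embryos with no overlap. In pools 27.6% of that class had KO pools above CTR pools with no overlap. With each library's dependence on coding length removed, the members' median became 0.04 in single embryos, with 5 below 0 and 5 above, and 0.03 in pools. Kdm6b then had -0.46, Kdm2a -0.52, Kdm5a -0.10 and Kdm5c -0.07 in single embryos, and Kdm6a, Kdm3a and Kdm3b turned to 0.15, 0.29 and 0.23. Kdm4a had -0.22, and the positive values grew, Kdm4c to 0.83 and Kdm5b to 0.62, with no adjusted p under 0.277 among the 10. The correction also removes any change in KO that genes of like length share. Of all tested genes 84.5% in single embryos and 80.3% in pools had a length, and the part of length in each member's value was not tested.

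**Figure D4:**
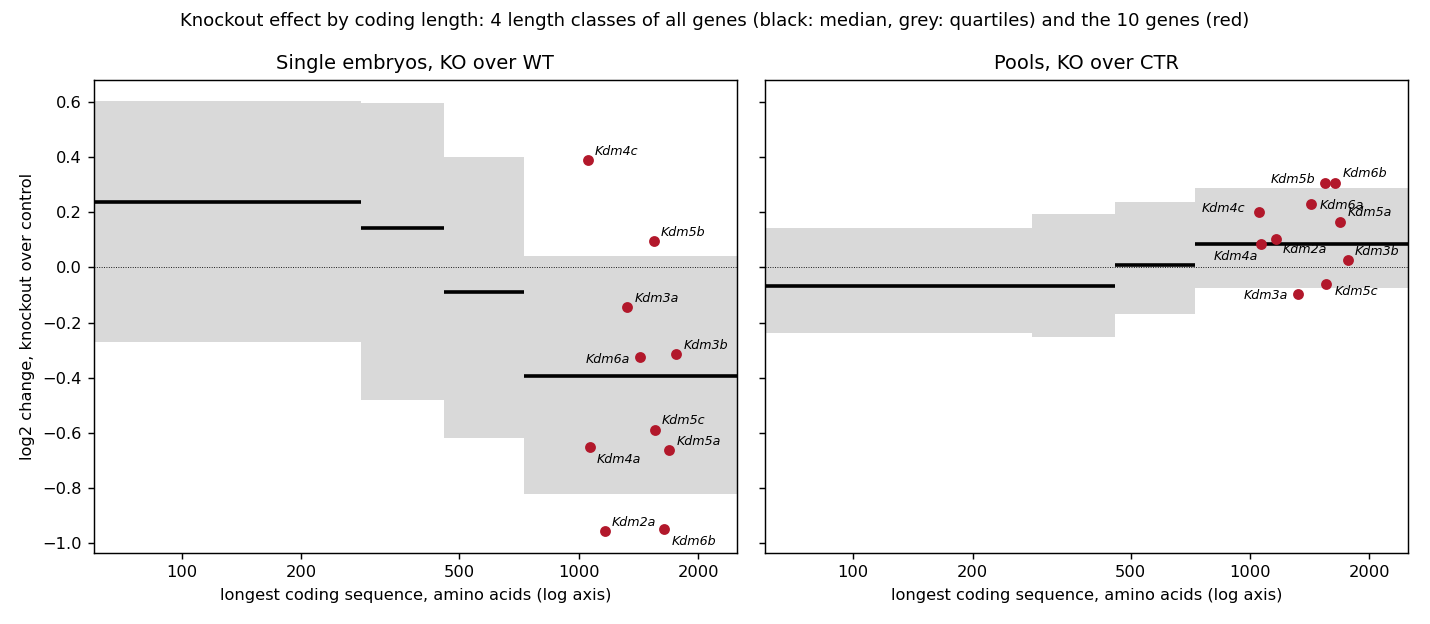
Log2 change, knockout over control (vertical axis), against the longest coding sequence in amino acids (horizontal log axis), in single embryos (left) and pools (right). Black lines are medians and grey bands the range between the lower and upper quartile of all tested genes in 4 classes of length, cut at the axis limits, and red points are the 10 genes. The median of the longest class is -0.39 in single embryos and 0.09 in pools.

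Levels were compared between genes as CPM per kilobase of the transcript with the longest coding sequence. Kdm5b was first in every group by this length, at 23.0 ± 6.81 in KO single embryos and 22.2 ± 5.26 in WT single embryos (SD, n = 3 each), and at 24.0 ± 1.31 in KO pools and 18.3 ± 1.60 in CTR pools (SD, n = 2 each). Kdm3b, with the overlap named above, followed at 16.0 ± 5.98 and 20.4 ± 2.54 CPM per kilobase in KO and WT single embryos and 14.7 ± 1.18 and 13.5 ± 1.36 in KO and CTR pools. Kdm6b, Kdm6a and Kdm3a took the next ranks, in changing order, from 7.22 to 16.8 CPM per kilobase. Kdm5a, Kdm5c and Kdm4c came after them in all groups but WT single embryos, where Kdm2a stood above Kdm4c. Kdm4a was last by this length in all 4 groups, at 1.64 ± 0.28 and 2.68 ± 0.31 CPM per kilobase in KO and WT single embryos and 1.55 ± 0.35 and 1.36 ± 0.08 in KO and CTR pools. Of the 9 pairs of neighbours in this order, the library ranges overlapped for 8 in KO single embryos, 7 in WT single embryos and 5 in both kinds of pools. With the merged exon length in place of the transcript, a member moved by up to 3 ranks. Kdm6b was then first in WT single embryos, and Kdm2a was last in KO single embryos and in both kinds of pools.

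Kdm6a and Kdm5c lie on the X chromosome, are known to escape X inactivation and have the Y-linked copies Uty and Kdm5d. Kdm5d had 0 counts in all 6 single embryos, as did Ddx3y and Eif2s3y, and Uty had 3 counts in KO single embryo 1 and 0 in the others. A count of 0 allows up to 3 counts of the total, 0.160 to 0.202 CPM in these libraries, for counting error only. In the pools Kdm5d had 2.91 and 3.88 CPM in KO, against 3.57 and 3.62 CPM in CTR. Uty had 7.44 and 6.51 CPM in KO pools, against 6.53 and 8.20 CPM in CTR pools. Y-linked transcripts were thus counted in both kinds of pools and were near 0 in the single embryos. The Kdm5d count was 11.1% and 11.4% of the Kdm5c count in KO pools, against 12.5% and 12.1% in CTR pools, and the Uty count was 13.6% and 12.5% of the Kdm6a count in KO pools, against 15.7% and 18.5% in CTR pools.

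Xist, the RNA that coats the inactive X, had 262, 390 and 179 CPM in KO single embryos, against 558, 415 and 688 CPM in WT ones, and 137 and 221 CPM in KO pools, against 113 and 79.5 CPM in CTR pools. Every KO embryo lay below every WT embryo, as for 15.3% of all genes tested there. Every KO pool lay above every CTR pool, as for 24.3% of all genes tested in pools. The log2 change was -0.98 (SE 0.27, adjusted p = 0.0676) in single embryos and 0.79 (SE 0.24, unadjusted p = 0.00780, adjusted p = 0.584) in pools. In single embryos it passed with DESeq2 (adjusted p = 0.00951), limma-voom (adjusted p = 0.0450), both other filters on low counts (adjusted p = 0.000541 and 0.0278), without WT embryo 2 (adjusted p = 0.0484) and without KO embryo 3 (adjusted p = 0.0282). In pools it passed with no filter (adjusted p = 0.0127), and without KO pool 1 (adjusted p = 0.00185), where the remaining KO pool is assumed to vary like the CTR pools. The difference between the sets, which passed with DESeq2 and with no filter, was -1.75 (SE 0.45, unadjusted p = 0.00193, adjusted p = 0.235). Kdm5c had the same order of groups as Xist in single embryos, while in pools its groups overlapped. Xist overlaps Tsix on the opposite strand, so its counts are uncertain. The single embryos are labelled female, while the share of female embryos in each pool was not tested.

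**Figure D5:**
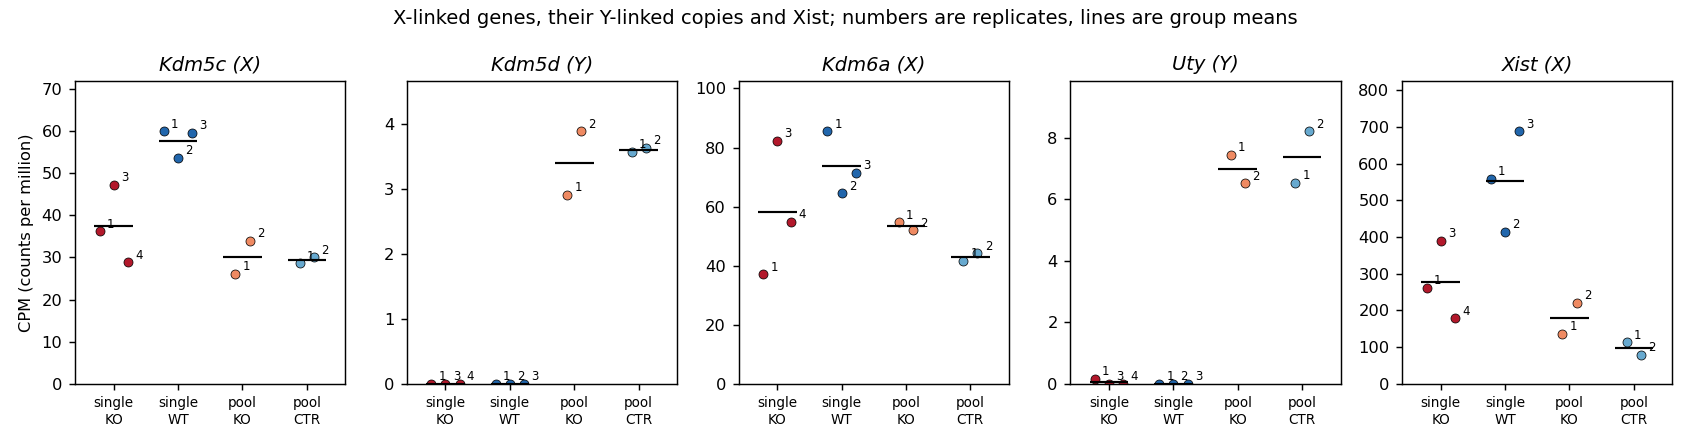
CPM (vertical axes, linear from 0) of the X-linked members Kdm5c and Kdm6a, their Y-linked copies Kdm5d and Uty, and Xist, by group, with points for libraries numbered by replicate and lines for group means. The Y-linked copies are at 0 in single embryos other than the 3 Uty counts of KO embryo 1, and at 2.91 to 8.20 CPM in the pools.

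Among 20 other genes with a JmjC domain, 17 were tested in single embryos, where 1 rose and 0 fell, against 1.16% and 3.21% of all genes tested. Their median log2 change was -0.26. Hspbap1, a JmjC protein first described as a partner of Hsp27, had 114, 103 and 88.9 CPM in KO single embryos, against 54.1, 50.9 and 54.4 CPM in WT ones, a log2 change of 0.99 (SE 0.23, adjusted p = 0.0359). Its call was kept when KO embryo 3 was left out and lost when any of the other 5 was (adjusted p 0.0295 to 0.135). In pools 19 were tested and 0 passed, and the smallest p-values belonged to Hr at 0.77 (SE 0.30, unadjusted p = 0.0259) and Hif1an at -0.38 (SE 0.20, unadjusted p = 0.0828). Hspbap1 had a mean of 74.4 CPM in KO pools, against 81.8 CPM in CTR pools. The demethylases of the unrelated LSD family, Kdm1a and Kdm1b, had log2 changes of -0.04 (SE 0.21) and 0.21 (SE 0.51) in single embryos and -0.01 (SE 0.17) and -0.14 (SE 0.22) in pools.

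Of 18 genes for proteins that work in complexes with the demethylases, 1 rose, 2 fell and 15 did not pass in single embryos, with a median of 0.07, where 1.16% of all genes tested rose and 3.21% fell. Kmt2c, the H3K4 methyltransferase whose complex contains Kdm6a, had 146, 263 and 158 CPM in KO single embryos, against 445, 368 and 461 CPM in WT ones, and fell by 1.15 on the log2 scale (SE 0.22, adjusted p = 0.0230). Paxip1, another subunit of that complex, had 9.27, 19.3 and 12.5 CPM in KO single embryos, against 41.7, 38.4 and 40.0 CPM in WT ones, and fell by 1.52 (SE 0.32, adjusted p = 0.0277). Skp1a, which binds the F-box of Kdm2a, had 944, 829 and 1022 CPM in KO single embryos, against 438, 595 and 619 CPM in WT ones, and rose by 0.81 (SE 0.20, adjusted p = 0.0453). For each of these 3 genes the KO and WT embryos did not overlap, as for 15.3% of all genes on the lower and 12.6% on the higher side. Without 1 library at a time the adjusted p ran from 0.0143 to 0.104 for Kmt2c, 0.0166 to 0.111 for Paxip1 and 0.0222 to 0.180 for Skp1a. The calls of Kmt2c and Paxip1 were kept only without WT embryo 2 or KO embryo 3, and that of Skp1a only without KO embryo 3. With coding length corrected, Kmt2c was at -0.31 (adjusted p = 0.361), Skp1a at 0.61 (adjusted p = 0.0669) and Paxip1 at -1.15 (adjusted p = 0.0436). In pools 0 of the 18 passed, with Ash2l at -0.37 (SE 0.19) and Sin3a at -0.37 (SE 0.19) nearest to it. Mean levels there were 180 CPM in KO against 166 CPM in CTR for Kmt2c and 24.3 against 21.4 CPM for Paxip1. For Skp1a they were 1180 CPM in KO pools, against 1190 CPM in CTR pools.

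Of 20 methyltransferase genes that set the marks these enzymes remove, Kmt2c among them, 1 fell and 0 rose in single embryos. Among all genes tested 3.21% fell and 1.16% rose. KO embryos lay below WT embryos with no overlap for 11 of the 20 and above for 0, against 15.3% and 12.6% of all genes. In the longest class of coding length 23.9% lay below. Of the 20 genes 18 were below 0, with a median of -0.62. Over all genes tested 51.7% were below 0, and in the longest class of coding length 72.7%. In pools 0 of 20 passed and the median was 0.02, with Nsd1 at -0.34 (SE 0.16) and Setd2 at 0.27 (SE 0.17) nearest. Of 17 genes that make or use alpha-ketoglutarate or its competitors, 1 rose and 0 fell in single embryos, with a median of 0.08, again against 1.16% and 3.21% of all genes. It was Idh3g, a subunit of the isocitrate dehydrogenase that makes alpha-ketoglutarate, with 613, 445 and 691 CPM in KO single embryos, against 211, 339 and 323 CPM in WT ones. The groups did not overlap, as for 12.6% of all genes on the higher side, and the log2 change was 1.06 (SE 0.25, adjusted p = 0.0397). That call was kept when KO embryo 3 was left out and lost when any of the other 5 was (adjusted p 0.0156 to 0.164). In pools 0 of 17 passed, with a median of -0.12.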

How the data were processed

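Polyadenylated RNA of 10 morula libraries was counted by the authors, and the deposited table gives whole-number counts per gene without normalization. Per the labels' protocols, libraries were made with SMART-Seq v4 and Nextera XT and read as single ends of 75 bases. The submitters' processing notes name mm10 and the tools RSEM 1.3.1, STAR 2.7.6a and fastp 0.21.0. Their roles, the annotation and the handling of strand and of multiply matching reads are not stated in the sources used here. Reads carry no molecular identifiers, so intervals and floors cover counting error only.

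The main test was that of edgeR 4.0.16 under R 4.3.3 (filterByExpr, TMM, quasi-likelihood F test, Benjamini-Hochberg at 5%, two-sided) in each set by itself, and for the difference and the average over all 10 libraries with 4 group means. CPM were computed from library totals, so a ratio of CPM can differ from the fitted change. Standard errors were derived from each F value, and 95% intervals from the t distribution of the fit. The script was tested on simulated data, with changes set in genes of all levels. It called 18% of 2-fold and 48% of 4-fold changes in single embryos, and 44% and 73% in pools. For the difference it called 6% and 39%, and for the average 49% and 68%. DESeq2 1.42.0, limma-voom 3.58.1, other scalings and filters, a correction for coding length, the replicate block and leaving out each library were the alternatives. Coordinates and lengths are from GENCODE M21 (GRCm38, which mm10 stands for).

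The members, lists and tests were chosen with earlier results of these data known. Besides the members, the text names Jarid2, the sex-linked genes, the genes of each list past 5% (else the 2 with the smallest p) and the 5 profiles most like the members' mean. What it names in the pools from the genes of alpha-ketoglutarate is not reported here. Riox1, Riox2, Nsd2 and Nsd3 were found under older symbols. Replicate numbers shared by KO and control libraries are not stated to mark pairs, and fewer than 3 are shared in each set, so they were not used as pairs.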

Additional observations from a re-analysis of the deposited data

How the results depend on the processing

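Of the 10 genes, 0 passed 5% in pools, in the difference and in the average under every alternative run. In single embryos the number was 1 with no filter on low counts and 0 to 1 over the leave-one-out fits (Kdm6b each time), and 0 under every other alternative. The number of all genes past 5% moved far more, from 605 to 1957 with DESeq2 and 1667 with all 10 libraries in 1 fit, 1715 with no filter on low counts and 1243 with a mean of at least 10 CPM in single embryos. In the average it was 40, against 484 with DESeq2, 141 with limma-voom and also with a mean of at least 10 CPM, 579 with no filter, 64 with the length correction, 1 with upper quartile factors and 0 with genotype and set as added terms. In the difference it was 1, against 544 with DESeq2 and 548 with no filter, and in pools 170 with no filter.

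With the length correction some signs turned. In single embryos Kdm6a, Kdm3a and Kdm3b became 0.15, 0.29 and 0.23, against -0.33, -0.15 and -0.31 without it. In pools Kdm4a, Kdm3b and Kdm2a became -0.014, -0.073 and -0.0014. In the difference Kdm5b, Kdm5c, Kdm3a and Kdm3b became 0.41, 0.090, 0.46 and 0.30, against -0.20, -0.51, -0.03 and -0.32 without it, and in the average Kdm6a, Kdm3a and Kdm3b became 0.14, 0.049 and 0.075. Kdm5c in pools became 0.035 with library totals only and 0.0024 with a mean of at least 10 CPM. Kdm3a in the difference became 0.0047 with upper quartile factors and 0.012 with no filter, and Kdm6a in the average 0.032 with upper quartile factors.

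The replicate block, over numbers 1 and 3 in single embryos and 1 and 2 in pools, rests on numbers not known to be pairs (correlations of same-numbered deviations -0.014 and -0.085 in single embryos and 0.32 in pools). With the block 38 genes passed in single embryos and 39 in pools, 0 of them members. Kdm5b in the difference became 0.016. With block and length correction together, 13 and 1 genes passed. Kdm3a and Kdm3b were then at 0.22 and 0.34 in single embryos. Kdm4a, Kdm3b and Kdm2a were at -0.0086, -0.077 and -0.014 in pools. Kdm5b, Kdm5c, Kdm3a and Kdm3b were at 0.53, 0.12, 0.39 and 0.39 in the difference, and Kdm6a and Kdm3b at 0.038 and 0.11 in the average. The calls of Jarid2, Hspbap1, Kmt2c, Paxip1, Skp1a and Idh3g in single embryos were lost with the block (adjusted p from 0.0847 upwards), which uses fewer libraries. In pools Jarid2 passed with the block (adjusted p = 0.00322, or 0.0314 with the length correction).

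Leaving out each library in turn gave ranges that cross 0 for Kdm3a (-0.41 to 0.052), Kdm4c (-0.030 to 0.60) and Kdm5b (-0.14 to 0.32) in single embryos. In pools they did for Kdm2a (-0.29 to 0.41), Kdm3a (-0.32 to 0.095), Kdm3b (-0.048 to 0.10), Kdm4a (-0.091 to 0.24) and Kdm5c (-0.19 to 0.058). In the difference they did for Kdm3a (-0.30 to 0.20), Kdm4c (-0.20 to 0.40) and Kdm5b (-0.42 to 0.059), and in the average for Kdm3a (-0.24 to 0.0063) and Kdm6a (-0.16 to 0.079). The causes of these moves were not tested. The 95% intervals set the limit of this design: in single embryos they span from 1.13 to 1.81 log2 units for the members.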
